A study of Mus musculus with 4 samples.

Results

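A set of 46 genes that lie on either side of Kdm5a on mouse chromosome 6 was followed in primary mouse embryonic fibroblasts with and without RBP2, the protein that Kdm5a encodes. They lie near Kdm5a, with 20 on the centromeric side of Kdm5a and 26 on the telomeric side. The choice was made with earlier results of these arrays known, and it leaves out other measured genes of the same interval, Cxcl12 among them. Of the 46 genes, 45 had at least 1 probe set annotated with their symbol alone, and only B4galnt3 had none. These genes had 85 probe sets, out of 45037 on the array that are not controls. A further 2 probe sets that carry the symbol of a chosen gene beside another symbol were not used.

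Mouse embryonic fibroblasts are connective tissue cells grown directly from embryos. The groups were RBP2-/- fibroblasts, here called RBP2-null, and wild-type fibroblasts, each with 2 independent lines at passage 3 and 1 Affymetrix array per line. Which part of Kdm5a was altered, the strain background and the sex of the embryos are not given in the sources used here. With 2 lines a group, p-values cover only the spread between these lines, and an RNA level of the whole culture cannot separate fewer cells of a type from less RNA per cell.

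RBP2, also called KDM5A, is an enzyme that takes methyl groups off histone H3 at lysine 4, where methylation marks active promoters. When a gene is altered by targeting in embryonic stem cells, the DNA beside it is inherited with it, so a mutant line can keep flanking DNA of the stem cell donor strain that its wild-type counterpart lacks. Sequence differences of that kind can change the level of a neighbouring gene, or can change how well an array probe binds its transcript. The comparison asks whether the genes beside Kdm5a differ between the genotypes, in either direction.

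The arrays had a median deposited signal between 21.5 and 43.7 in RBP2-null lines and between 22.7 and 29.4 in wild-type lines, and were brought to a common level by quantile normalization. Values below are log2(normalized signal + 9), and a difference is always RBP2-null minus wild type on that scale. Wild-type replicate 1 stood apart, with a highest correlation of 0.928 to any other array, against 0.951 to 0.965 for the others. All 9 fibroblast markers were among the brighter 60% of probe sets that were kept for testing, and so were 4 of 6 leukocyte markers, 3 of 4 endothelial, 3 of 4 epithelial and 3 of 4 neuronal ones. Those not kept were Ptprc and Cd68 of leukocytes, Pecam1 of endothelium, Cdh1 of epithelium and Snap25 of neurons. The summed leukocyte signal was 226 to 240 in RBP2-null lines and 266 to 377 in wild-type lines. In the same order, fibroblast sums were 37631 to 39354 and 37200 to 40321. Endothelial sums were 112 to 119 and 110 to 119, and epithelial sums 438 to 584 and 537 to 706. Neuronal sums were 326 to 481 and 237 to 419. The part of these signals in any result was not tested.

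Kdm5a itself had normalized log2 values of 6.40 and 6.49 in RBP2-null lines on its brightest probe set, against 6.72 and 7.65 in wild-type lines. The groups did not overlap, but the difference of -0.74 had a 95% interval from -1.53 to 0.045 and a limma adjusted p of 1.00. The value came to -0.27 without wild-type replicate 2. A dimmer Kdm5a probe set had 4.52 and 5.21 in RBP2-null lines and 5.84 and 6.39 in wild-type lines. Its groups did not overlap, and the difference of -1.24 had a 95% interval from -2.17 to -0.32, an unadjusted limma p of 0.0146 and an adjusted p of 1.00. The other 3 kept ones had values from -0.25 to 0.24.

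No flanking gene passed the test between the genotypes. Of the 85 probe sets, 58 passed the filter on low signal, and these covered 35 genes. Of these 58, 0 had a limma adjusted p under 0.05, while over the whole array 1 of 27022 did (0.0037%). At an unadjusted p under 0.05 there were 2 of 58 (3.45%), 1 probe set each of Zfp239 and Zfp637, beside 805 of all 27022 (2.98%). Both RBP2-null arrays lay on 1 side of both wild-type arrays for 18 of 58 (31%), beside 29.5% of all kept probe sets. Of these 18, 8 were above (13.8%, beside 14.6% of all) and 10 were below (17.2%, beside 14.9% of all).

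The split into higher and lower values depended on how the arrays were scaled. With each array centred on its median instead, 13 of 59 kept flanking probe sets lay above and 1 of 59 below, beside 23.8% and 7.98% of all. As deposited, without scaling, 7 of 59 lay above and 0 of 59 below, beside 14.6% and 2.18% of all. These scalings moved the median of all probe sets by 0.18 and 0.38 in favour of RBP2-null cells.

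With quantile normalization, the sizes of the differences were close to those of the array as a whole. The median absolute difference was 0.20 over the 58 probe sets and 0.21 over all 27022. With median-centred arrays it was smaller for the flanking genes, 0.15 over 59 probe sets, beside 0.21 over all. The median signed difference was -0.053 over the flanking probe sets, with 24 above 0 and 34 below, and 0.0031 over all. An absolute difference of at least 1 was reached by 1 of 58 (1.72%) and by 2.34% of all. Without wild-type replicate 1, the array that stood apart, 0 of 58 passed the threshold, and the median absolute difference was 0.20 over the flanking probe sets and 0.21 over all. In 40 of 58 probe sets (69%) the 2 wild-type lines differed from each other by more than the genotypes did, as in 66.7% of all.

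These measurements also set limits. The 95% interval lay within -1 and 1, a 2-fold difference either way, for 42 of 58 flanking probe sets (72.4%). Over all kept probe sets the share was 51.9%. The median standard error was 0.29 over the flanking probe sets and 0.33 over all, so these shares also depend on precision. These 42 came from 27 genes, but some of the genes had another kept probe set whose interval reached beyond these limits. Spsb2 was one of them. The highest upper bound was 1.81, for Cacna2d4, and the lowest lower bound was -2.32, for Spsb2. The interval of a flanking probe set reached a median of 0.67 to each side. These intervals are not adjusted for the number of probe sets tested, and of the 633 probe sets of the array with an absolute difference of at least 1 only 1 passed the threshold.

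**Figure D1:**
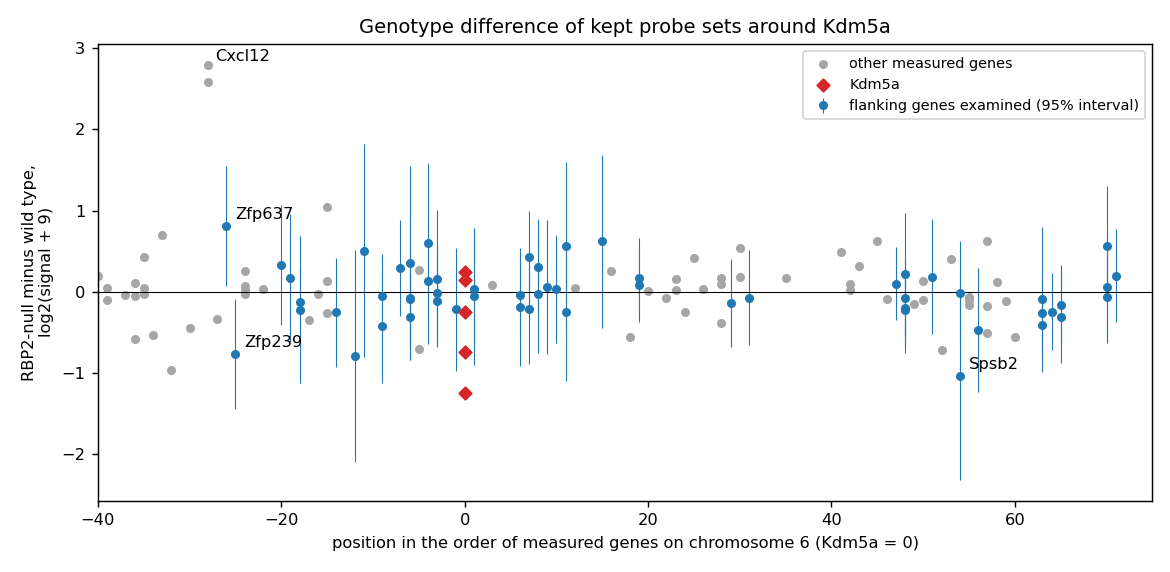
Genotype difference in log2(signal + 9) on the vertical axis for each kept probe set, against its gene's place in the order of measured genes on chromosome 6, with Kdm5a at 0. Blue points are the flanking genes with 95% intervals and red diamonds are Kdm5a. Grey points are other measured genes, drawn only as far as position 60, so the flanking genes beyond it appear without them. The flanking genes lie between -1.04 and 0.81, and both Cxcl12 probe sets lie above 2.5 on the left.

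Cxcl12, a chemokine, is not one of the 46 genes but lies among them, between Tmem72 and Zfp637, and is the only gene of the whole array past the threshold. By gene order it is the 28th measured gene on the centromeric side of Kdm5a. Its 2 kept probe sets had differences of 2.79, with a 95% interval from 2.27 to 3.32 and a limma adjusted p of 0.0316, and 2.58, with an adjusted p of 0.225. The call was lost without RBP2-null replicate 2, where the difference was 2.68 and the adjusted p 0.0976, and also without scaling, without the filter and without the mean-dependent variance. Over the alternatives that keep the 4 arrays unpaired or leave 1 out, its adjusted p ran from 0.00306 to 1. The upper bound of every kept flanking probe set, at most 1.81, lay below the lower bound of 2.27 for Cxcl12. Of its neighbours in the set, Zfp637 had 0.81 on its kept probe set, and Tmem72 and Rassf4 were too dim to be kept. Nearby measured genes outside the set, Gm9946, Depp1, Alox5 and Marchf8, had -0.34, -0.45, -0.96 and 0.70.

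Nearness to Kdm5a was not accompanied by larger differences. Over the measured genes up to the tenth on each side, whether chosen or not, 26 kept probe sets had a median absolute difference of 0.15, and genotypes did not overlap in 9 of them (34.6%). From gene 11 to 40 on each side, 59 probe sets had a median of 0.20, with 15 not overlapping (25.4%). From gene 41 to 100 the values were 0.20 over 149 probe sets and 33.6%. On the rest of chromosome 6 they were 0.22 over 916 probe sets and 31.8%, and on the other chromosomes 0.20 over 21772 and 29.2%. Among the chosen genes alone, the median absolute difference was 0.24 on the centromeric side (22 probe sets) and 0.19 on the telomeric side (36 probe sets).

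**Figure D2:**
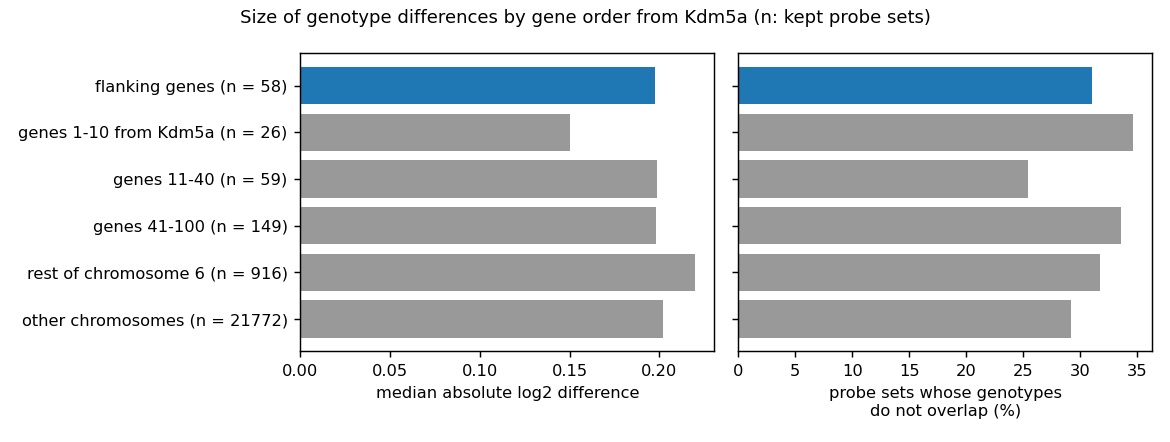
Bars give the median absolute genotype difference on the log2 scale (left) and the percentage of kept probe sets whose genotypes do not overlap (right), for the flanking genes and for bands of gene order from Kdm5a. The 26 probe sets of the nearest genes have the lowest median difference, 0.15, and the highest share not overlapping, 34.6%.

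The nearest measured genes on each side were Ccdc77 and Il17ra. Ccdc77 encodes a coiled-coil protein and lies next to Kdm5a on the centromeric side, where 1 of its annotated starts falls inside the annotated span of Kdm5a. Its promoter window is therefore shown, read from RefSeq on GRCm38.p6 from 250 bases before to 50 bases after the start, on the minus strand at chr6:120364320-120364619.
Ccdc77: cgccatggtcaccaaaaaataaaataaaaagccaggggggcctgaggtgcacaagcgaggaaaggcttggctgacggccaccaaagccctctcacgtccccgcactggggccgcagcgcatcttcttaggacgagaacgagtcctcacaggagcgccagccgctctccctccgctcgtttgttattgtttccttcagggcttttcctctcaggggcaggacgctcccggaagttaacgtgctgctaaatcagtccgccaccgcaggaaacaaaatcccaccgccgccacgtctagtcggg
The 1 kept Ccdc77 probe set had 5.74 and 5.55 in RBP2-null lines and 5.73 and 5.99 in wild-type lines. The groups overlapped, and the difference was -0.22 with a 95% interval from -0.97 to 0.54. Il17ra, the receptor subunit for interleukin 17, is the first gene on the telomeric side. It had 6.16 and 6.50 in RBP2-null lines and 6.20 and 6.39 in wild-type lines on its brighter probe set, so that both groups covered nearly the same range. Its differences were 0.034 and -0.057 on the 2 probe sets.

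Farther out on the centromeric side, Wnk1, a kinase that controls chloride transport, had 10.63 and 10.18 in RBP2-null lines and 10.79 and 10.26 in wild-type lines on its brightest probe set. Replicate 1 was the higher line in both genotypes. Its 3 probe sets had differences of -0.12, -0.016 and 0.16. Rad52, a DNA recombination protein, had 5.73 and 5.30 in RBP2-null lines and 4.56 and 5.25 in wild-type lines on 1 probe set. The groups did not overlap, but wild-type replicate 1 alone was low, and the difference of 0.61 came to 0.27 without it. The brighter Rad52 probe set had 0.14. Erc1, a scaffold of the site where vesicles are released, had 7.42 and 7.41 in RBP2-null lines and 7.76 and 7.69 in wild-type lines on its brightest probe set. The groups were apart there, with a difference of -0.31 and a 95% interval from -0.84 to 0.22. Its other 3 probe sets had -0.091, -0.078 and 0.35.

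Farther out on the telomeric side, Atp6v1e1, a subunit of the proton pump of lysosomes, had differences of -0.040 and -0.19. Bcl2l13, a mitochondrial protein of the Bcl2 family, had 7.70 and 7.49 in RBP2-null lines and 7.27 and 7.08 in wild-type lines. The groups did not overlap on this probe set, with a difference of 0.42 and a 95% interval from -0.15 to 0.99, while the other probe set had -0.21. Bid, which carries the death receptor signal to mitochondria, had 7.64 and 7.46 in RBP2-null lines and 7.04 and 7.45 in wild-type lines on its brightest probe set. The difference was 0.30, with RBP2-null replicate 2 barely above wild-type replicate 2. Of the 12 nearest genes, Ninj2, Cecr2 and Slc25a18 had no kept probe set, and B4galnt3 had no probe set annotated with its symbol alone. Ninj2 is an adhesion protein of nerve injury, Cecr2 a chromatin remodelling factor and Slc25a18 a mitochondrial glutamate carrier.

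The largest value of all 85 probe sets was on one of Bid that fell just under the filter. It had 5.42 and 5.60 in RBP2-null lines and 3.72 and 4.02 in wild-type lines. The groups were well apart, and in a fit without the filter the difference was 1.64 (SE 0.45, unadjusted limma p of 0.00719, adjusted p of 1.00). Its name ends in _x_at, which Affymetrix uses where probes can bind other transcripts, and the 2 kept Bid probe sets had 0.30 and -0.025. Its mean log2 value was 4.69, and the lowest mean of any kept probe set was 4.76. Just above the filter stood a probe set of Tuba8, a tubulin, with 5.24 and 4.86 in RBP2-null lines and 4.60 and 4.38 in wild-type lines. Its difference was 0.56, and the other Tuba8 probe set had -0.25.

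**Figure D3:**
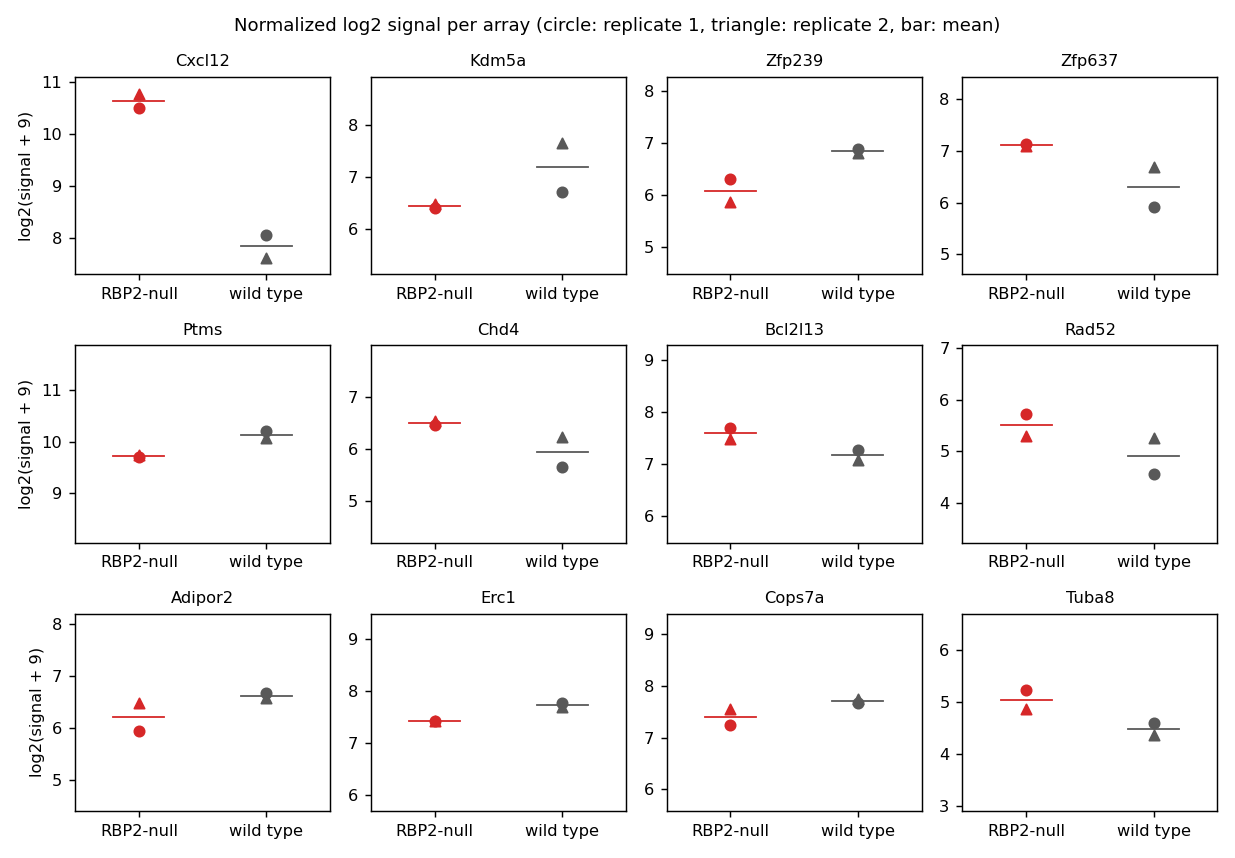
Normalized log2(signal + 9) per array for Cxcl12, Kdm5a and the 10 flanking probe sets with the smallest unadjusted p among those whose genotypes do not overlap. Circles are replicate 1, triangles replicate 2 and bars group means, with RBP2-null left and wild type right and the same span on each vertical axis. Cxcl12 differs by 2.79 and the flanking genes by at most 0.81.

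The chromatin, transcription and repair genes held both probe sets with an unadjusted p under 0.05. Of 9 such genes 7 had kept probe sets, 12 in all, of which 0 passed the threshold. Both RBP2-null arrays lay above both wild-type arrays for 4 of the 12 and below for 3, so that 58.3% did not overlap, beside 29.5% of all kept probe sets; the roles were assigned with results known, and nothing is read from a group of this size. Zfp637 and Zfp239, neighbouring genes for zinc finger proteins, had differences in opposite directions. Zfp637 had 7.12 and 7.08 in RBP2-null lines and 5.91 and 6.68 in wild-type lines. Its difference was 0.81, or 1.75-fold in signal + 9. The 95% interval was from 0.069 to 1.55, with an unadjusted limma p of 0.0356 and an adjusted p of 1.00. Zfp239 had 6.31 and 5.86 in RBP2-null lines and 6.89 and 6.82 in wild-type lines. Its difference was -0.76, with a 95% interval from -1.44 to -0.089, an unadjusted limma p of 0.0309 and an adjusted p of 1.00. Among all 27022 probe sets these ranked 512th and 411th by p. Zfp637 had 0.43 without wild-type replicate 1, and Zfp239 had -0.52 without RBP2-null replicate 2.

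Their promoter windows are shown because these are the genes with the smallest p among the kept flanking probe sets. That of Bid is shown as an example of the many windows that hold the letters searched for. The human RBP2 protein is known to bind the letters CCGCCC through its ARID domain, and these were looked for on both strands (CCGCCC and GGGCGG). The same letters form the GC box bound by Sp1, so a match cannot tell the factors apart. Each window runs from 250 bases before to 50 after the most upstream start in RefSeq on GRCm38.p6, with matches in capitals. Zfp637 is on the plus strand at chr6:117840931-117841230, Zfp239 on the plus strand at chr6:117861774-117862073 and Bid on the minus strand at chr6:120916775-120917074.
Zfp637: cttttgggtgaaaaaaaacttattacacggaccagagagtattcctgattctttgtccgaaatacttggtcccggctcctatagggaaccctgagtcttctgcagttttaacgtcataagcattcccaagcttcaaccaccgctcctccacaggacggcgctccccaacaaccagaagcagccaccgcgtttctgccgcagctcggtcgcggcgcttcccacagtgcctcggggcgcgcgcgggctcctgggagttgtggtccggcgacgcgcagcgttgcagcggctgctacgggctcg
Zfp239: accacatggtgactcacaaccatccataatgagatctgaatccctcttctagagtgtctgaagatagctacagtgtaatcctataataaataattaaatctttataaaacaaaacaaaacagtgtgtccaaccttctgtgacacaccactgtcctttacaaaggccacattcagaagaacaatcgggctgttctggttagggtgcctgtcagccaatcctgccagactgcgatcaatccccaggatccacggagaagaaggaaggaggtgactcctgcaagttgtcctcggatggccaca
Bid: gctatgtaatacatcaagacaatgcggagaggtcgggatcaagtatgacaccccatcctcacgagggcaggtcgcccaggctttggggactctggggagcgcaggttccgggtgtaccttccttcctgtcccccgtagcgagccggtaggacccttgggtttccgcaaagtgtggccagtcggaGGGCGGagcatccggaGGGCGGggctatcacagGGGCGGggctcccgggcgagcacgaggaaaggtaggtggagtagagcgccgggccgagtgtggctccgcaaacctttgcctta
The Bid window held 3 matches, and the windows shown for Zfp637, Zfp239 and Ccdc77 held 0. Zfp637 and Zfp239 have 2 annotated starts each and Ccdc77 has 4, and matches in their other windows are not given here. A match was present in 32 of 60 windows (53.3%) from the 39 flanking genes with an entry, and in 35.7% of all 32851 windows. The share was 58.5% for flanking genes with a kept probe set and 38.9% for those with none kept. The Zfp637 window held 27 CG pairs and the Zfp239 window 4, beside a median of 19.5 for the flanking genes and 7 for all windows. A match is only a description of these letters.

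The remaining chromatin genes differed less or on 1 probe set alone. Ptms, encoding parathymosin, an acidic nuclear protein, had 9.70 and 9.74 in RBP2-null lines and 10.20 and 10.06 in wild-type lines. The groups were apart, with a difference of -0.41 and a 95% interval from -0.83 to 0.0091, and the other Ptms probe sets had -0.27 and -0.093. Chd4, the remodelling ATPase of the NuRD complex, had 6.47 and 6.54 in RBP2-null lines and 5.65 and 6.22 in wild-type lines on its dimmest probe set. That difference was 0.57, or 0.30 without wild-type replicate 1, while the brighter Chd4 probe sets had 0.065 and -0.065. Foxj2, a forkhead factor, and Atn1, a co-repressor, had -0.14 and 0.19.

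Ligands and receptors had 5 kept probe sets in 3 of 4 genes, with 0 past the threshold. Adipor2, a receptor for adiponectin, had 5.94 and 6.48 in RBP2-null lines and 6.67 and 6.58 in wild-type lines on its dimmer probe set. The groups did not overlap, but RBP2-null replicate 1 was the low one, and the difference of -0.42 came to -0.15 without it. The brighter Adipor2 probe set had -0.048. Ret, the receptor for glial cell line-derived factors, had 0.17, and the ligand gene Wnt5b had no kept probe set.

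Genes of ubiquitin handling and the COP9 signalosome had 6 kept probe sets in all 4 genes, with 0 past the threshold. Of the 6, 1 lay above and 2 below on both arrays (50%, beside 29.5% of all kept probe sets). Spsb2, a substrate adaptor of ubiquitin ligases, had the lowest difference of any flanking gene. On this probe set it had 3.88 and 5.49 in RBP2-null lines and 5.47 and 5.97 in wild-type lines. RBP2-null replicate 1 alone was far below the rest, and the difference of -1.04 came to -0.23 without it, while the brighter Spsb2 probe set had -0.020. Usp5, a deubiquitinase, had 7.60 and 8.62 in RBP2-null lines and 8.72 and 8.44 in wild-type lines, so that again only RBP2-null replicate 1 was low, and a difference of -0.47. Cops7a, a signalosome subunit, lay below on both of its probe sets, at -0.16 and -0.31, and the second of these values came to -0.15 without RBP2-null replicate 1. Fbxl14, an F-box protein, had 0.29.

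Genes of ribosome assembly and RNA decay had 5 kept probe sets in all 4 genes, of which 0 passed and 1, for Bms1, lay below on both arrays (20%, beside 14.9% of all kept probe sets). Bms1, Emg1 and Nop2, needed to build ribosomal subunits, had differences of -0.12, 0.10 and 0.20 on their brightest probe sets. Dcp1b, a partner of the enzyme that removes the mRNA cap, had 4.87 and 4.90 in RBP2-null lines and 6.57 and 4.77 in wild-type lines. Only wild-type replicate 1 was high, which gave a difference of -0.79 with a 95% interval from -2.09 to 0.52.

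Among channels and transporters, 3 of 6 genes had a kept probe set. Cacna1c, the pore subunit of a voltage-gated calcium channel, had -0.25. Cacna2d4, an accessory subunit of such channels, had 5.41 and 5.59 in RBP2-null lines and 5.89 and 4.11 in wild-type lines. The wild-type lines lay on either side of both RBP2-null lines, and the difference was 0.50. The gene for a GABA transporter, Slc6a13, and that for a betaine transporter, Slc6a12, had no kept probe set.

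Among mitochondrial and peroxisomal genes, which had 9 kept probe sets and 0 past the threshold, Phb2, encoding prohibitin 2, had differences from -0.23 to 0.22 over 4 probe sets, and Pex26, a peroxisomal membrane protein, had 0.030. Trafficking and cytoskeletal genes had 11 kept probe sets in all 6 genes, with 0 past the threshold. M6pr, which sorts enzymes to lysosomes, had 9.71 and 9.56 in RBP2-null lines and 9.69 and 9.42 in wild-type lines on its brighter probe set. The overlap was nearly complete, with differences of 0.081 and 0.17 on its probe sets. Necap1, of clathrin-coated vesicles, and Mical3, a monooxygenase of the MICAL family, had -0.071 and 0.059. Iqsec3, an exchange factor for Arf proteins, had 6.22 and 6.07 in RBP2-null lines and 4.82 and 6.23 in wild-type lines, so that only wild-type replicate 1 was low, and its difference was 0.62. Of the genes not yet named, Csgalnact2, which starts chondroitin sulfate chains, had 0.33 and Mlf2 had -0.24.

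In all, 10 genes had a probe set but none kept. They were Cecr2, Ing4, Ninj2, Rasgef1a, Rassf4, Slc25a18, Slc6a12, Slc6a13, Tmem72 and Wnt5b, whose 15 probe sets had mean log2 values between 3.41 and 4.76. In the fit without the filter 0 of these 15 had an unadjusted limma p under 0.05. Of all 27 flanking probe sets not kept, 2 did, the one of Bid given above and one of Cacna2d4, at -0.79 with an unadjusted limma p of 0.0218 and an adjusted p of 1.00. The matching share over all probe sets not kept is not given here, so nothing is read from this count. At such signal a difference of genotype would be hard to see, and the files hold no call of presence.

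Probe sets of 1 gene often differed in sign, among the flanking genes and over the array. Among the 16 flanking genes that kept 2 or more probe sets, 8 had values on both sides of 0 (50%), as did 3416 of 5803 genes (58.9%). The median range between a gene's probe sets was 0.35 for the flanking genes and 0.39 for all. Neither comparison is matched for the number of kept probe sets per gene. Compared with genes that have the same number of kept probe sets, 8 of the 16 had a range above the median. The widest were Spsb2 with 1.02 and Tuba8 with 0.81, where the median of genes with 2 probe sets was 0.29. Next came Erc1 with 0.66 over 4 probe sets, Chd4 with 0.63 over 3 and Bcl2l13 with 0.63 over 2. The probe letters were not used here, so whether a strain difference lies under any of these probes was not tested.

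**Figure D4:**
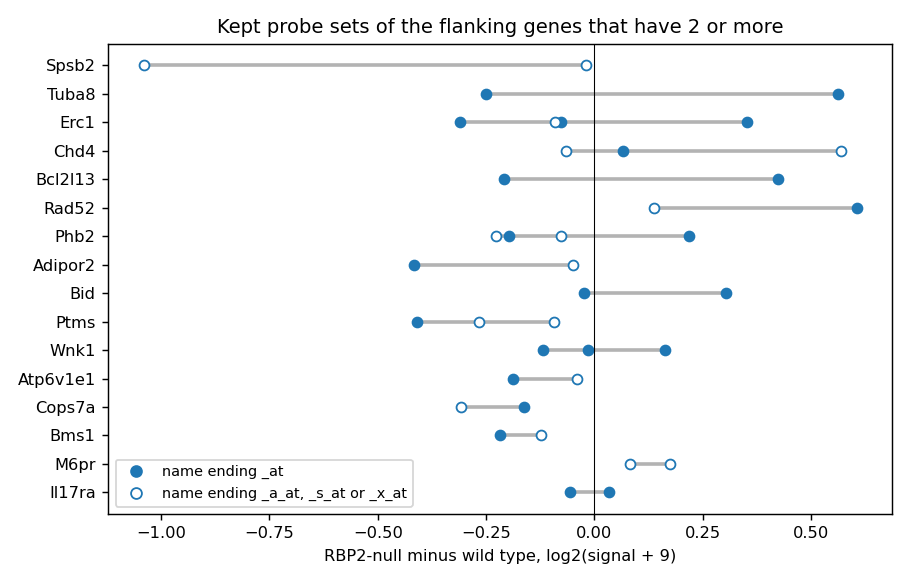
Genotype difference in log2(signal + 9) of each kept probe set, for the 16 flanking genes with at least 2, ordered by range. Filled points have names ending in _at, and open points have names marking probes that can bind several transcripts. Spsb2 has the widest range, 1.02, and 8 genes have points on both sides of 0.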

How the data were processed

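Affymetrix 1-colour arrays were hybridised with biotin-labelled RNA, per the labels. Each array's column of the deposited table gives a linear signal intensity for every probe set. The authors' probe summary and background correction are not stated in labels or file. Trimmed means of the deposited intensity, without 2% at each end, differed by up to 2.46 times between arrays.

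The 64 control probe sets were left out, the other 45037 were quantile normalized, and 9, the 25th percentile of all values, was added before log2, so differences of dim probe sets are understated. The upper 60% by mean over all 4 arrays, 27022 probe sets, were tested two-sided with limma 3.58.1 (R 4.3.3; lmFit, then eBayes with a mean-dependent prior). Benjamini-Hochberg adjustment ran over all of them, with a threshold of 0.05. The procedure was also run on simulated data that had the same spread for every probe set. That run does not show how often a true difference would be found on these arrays. Precision is limited by there being only 4 arrays.

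Gene names came from GEO's platform annotation, and gene order from a RefSeq table of GRCm38.p6, used only for neighbours. Measured genes are those with a probe set of 1 symbol, 992 of them on chromosome 6. The flanking genes, role groups and lists were chosen with earlier results of these data known. Named genes were Kdm5a and Cxcl12, the 6 nearest chosen genes on each side, the 10 probe sets with the smallest unadjusted p among those whose genotypes do not overlap, and the 5 genes with the widest range between probe sets. Other genes are given by role, and those named with per-array values outside these rules were chosen after their values were seen. Alternatives covered scaling, pseudocount, filter, variance model, cross-hybridising probe sets, a block for the replicate number, the definition of the region, and each array left out.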

Additional observations from a re-analysis of the deposited data

How the results depend on the processing

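The count of 0 flanking probe sets past the threshold held under every alternative of scaling, pseudocount, filter, variance model and arrays left out. Over the 40 measured genes on each side in place of the chosen ones it was 1, a probe set of Cxcl12. The count of 0 among the chosen genes also held with the replicate block (the number in the sample title as a term), where 49 of all 27022 probe sets passed and 0 of the 58. Replicate numbers were not taken as pairs, because no source ties them to a litter or day and only 2 pairs exist, with a correlation of deviations of 0.11. Over all probe sets the count was 41 without wild-type replicate 2. The count of flanking probe sets whose genotypes do not overlap was 7 of 59 without scaling (16.7% of all probe sets). It was 15 of 48 with the upper 40% kept (28% of all) and 12 of 35 on the brightest probe set of each gene (29.2% of all). With an array left out it was 32 to 41 of 58, where a lone array separates more easily (60.2% to 72.7% of all probe sets). Those above were 13 of 59 with median-centred arrays (23.8% of all probe sets), 5 of 48 with the upper 40% kept and 5 of 35 on the brightest probe sets. They were 15 to 20 of 58 with an array left out. Those below were 1 of 59 with median-centred arrays (7.98% of all), 0 of 59 without scaling (2.18% of all) and 17 to 23 of 58 with an array left out. Where no share by direction stands beside a count, nothing is read from its change. The median difference, 0.37 without scaling before the shift of 0.38 over all probe sets is taken off, was -0.014 after it. The median absolute difference was 0.18 over the 40 measured genes on each side in place of the chosen ones. For the chosen genes it was 0.15 with median-centred arrays, beside 0.21 over all probe sets. The values without scaling, after the shift is taken off, were the same.

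Several single values changed sign, and none of them was a call. Most of these values were from -0.12 to 0.14 in the main fit, but those of Tuba8 and Erc1, at -0.25 and 0.35, were larger. Relative to the shift, centring and no scaling both gave 0.024 for Wnk1, -0.019 for the brighter Rad52 probe set, -0.016 for Il17ra, 0.098 for Atp6v1e1, 0.020 for the brighter Spsb2 probe set and 0.024 for the brightest Chd4 probe set. With an array left out the ranges were -0.38 to 0.15 for Wnk1, -0.13 to 0.21 for Il17ra, -0.25 to 0.17 for Atp6v1e1, -0.29 to 0.25 for Spsb2, -0.21 to 0.073 for Chd4, -0.64 to 0.16 for the brighter Tuba8 probe set and -0.20 to 0.91 for the dimmest Erc1 probe set. The cause was not tested.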
